A study of Mus musculus with 7 samples.

Results

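The 7 genes described here encode chains of the receptors for IL-2, IL-4, IL-7, IL-13, IL-21 and TSLP. They are Il2rg, Il2ra, Il4ra, Il13ra1, Il7r, Crlf2 and Il21r, chosen by symbol from a list of cytokine receptor chains, and all 7 were found among the 28666 genes of the table. RNA-seq had been performed on flow-sorted immature (3 libraries) and mature (4 libraries) bone marrow-derived dendritic cells (BMDCs), and the question addressed here is how the receptor chains differ between the sorted populations. Bone marrow of female C57BL/6 mice aged 6 to 8 weeks was cultured for 7 days with GM-CSF (20 ng/mL) and IL-4 (10 ng/mL), and the BMDCs were then kept in a Transwell system with MC38 cells, a mouse colon adenocarcinoma line. The study's text gives 24 h of DON, a glutamine antagonist, and a legend gives DON (5 μM) or its solvent DMSO, while the sample labels give maturity alone, so the libraries were compared by maturity. Both groups had therefore been grown in IL-4, a ligand of the receptors described here, and neither group is a culture without it. The markers of the sort are not given in the sources used here, and cytometry plots of the study read maturation from CD80 and CD86 on CD11c+ cells. The labels do not state separate mice or cultures, so the p-values below measure the spread between these samples, which may be technical.

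The common gamma chain, encoded by Il2rg, pairs with cytokine-specific chains to form the receptors for IL-2, IL-4, IL-7, IL-9, IL-15 and IL-21, and it carries the kinase JAK3. IL-4Rα, encoded by Il4ra, binds IL-4 and signals together with either the common gamma chain (the type I receptor) or IL-13Rα1 (the type II receptor, which also binds IL-13), largely through STAT6. IL-7Rα, encoded by Il7r, pairs with the common gamma chain to bind IL-7 and with CRLF2 to bind TSLP, a cytokine of epithelial cells that acts on dendritic cells. In dendritic cells, IL-4 is used with GM-CSF to drive differentiation from bone marrow, and IL-2Rα (CD25) is known as a surface marker of mature cells.

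The promoter sequences are shown for 3 members, a chain higher by far in mature cells (Il2ra), an additional chain that rose (Il7r) and the chain with the largest fall (Crlf2), chosen after their values were seen. Each is the 250 bases before the RefSeq start in build GRCm38.p6, read 5′ to 3′ on the strand of the gene. For Il7r this start lies inside the gene as annotated, so its window and match fall within the annotated locus. The bases searched just after this start were found in no GENCODE transcript of Il7r. Capitals mark a match to a searched motif, which is the NF-κB consensus in Il2ra, the STAT letters TTCNNNGAA in Il7r and the PU.1 core GAGGAA in Crlf2.
Il2ra, chr2:11642542-11642791, plus strand: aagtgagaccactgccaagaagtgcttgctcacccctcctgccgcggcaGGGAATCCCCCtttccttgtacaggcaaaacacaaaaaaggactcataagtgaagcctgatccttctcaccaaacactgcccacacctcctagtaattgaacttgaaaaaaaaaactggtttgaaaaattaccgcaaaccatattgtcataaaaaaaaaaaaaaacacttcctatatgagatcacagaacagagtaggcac
Il7r, chr15:9529877-9530126, minus strand: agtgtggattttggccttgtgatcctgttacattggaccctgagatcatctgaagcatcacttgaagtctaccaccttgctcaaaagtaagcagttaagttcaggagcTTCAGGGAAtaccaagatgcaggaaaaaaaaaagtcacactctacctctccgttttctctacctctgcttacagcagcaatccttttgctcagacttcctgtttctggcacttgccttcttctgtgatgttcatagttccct
Crlf2, chr5:109558994-109559243, minus strand: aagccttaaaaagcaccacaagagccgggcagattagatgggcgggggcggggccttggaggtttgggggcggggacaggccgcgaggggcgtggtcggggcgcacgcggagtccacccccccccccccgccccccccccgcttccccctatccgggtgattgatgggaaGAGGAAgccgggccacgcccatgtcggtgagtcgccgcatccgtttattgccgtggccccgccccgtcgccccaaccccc

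The NF-κB match of Il2ra spans positions -201 to -191 from the start and holds overlapping matches on both strands. That of Il7r spans -142 to -134, and that of Crlf2 -80 to -75. A search of both strands of 32851 promoter windows of the same length found the NF-κB consensus in 7.25%, the STAT letters TTCNNNGAA in 7.02% and GAGGAA in 23.3%. The STAT6 spacing TTCNNNNGAA, present in 5.85% of all windows, the AP-1 letters TGANTCA (6.75%) and the IRF letters GAAANNGAAA (2.98%) were found in none of the 7 members. Il2rg, Il4ra, Il13ra1 and Il21r held none of the 6 motifs. The windows differed in base composition. The ratio of observed to expected CpG was 0.843 in Il4ra, 0.75 in Crlf2 and 0.671 in Il13ra1, against 0.284 in Il2ra, 0.207 in Il21r, 0.199 in Il2rg and 0.0844 in Il7r, with a median of 0.373 over all windows. The chains that rose past the criteria given below and those that did not were thus found on both sides of that median. A match of letters is a description and not a binding site.

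Total counts ranged from 54846746 to 67973086 per library, and the lowest count of any member was 353, for Il2ra in immature replicate 3. All 7 mature DC markers were higher in the mature libraries past the criteria given below, against 13.2% of all genes tested. Among them were Ccr7 (log2 fold change 3.62), Cd86 (3.37) and Cd80 (2.49). The labels and the markers thus gave the same direction, though Cd86 and Cd80 may have been used for the sort. Of 7 markers of conventional and GM-CSF-grown DC, Flt3 (3.77) and Zbtb46 (2.05) were higher by these criteria, against 13.2% of all genes. Cd209a (-3.54) was lower, against 9.95% of all genes. Flt3 was at most at 1.14 and Cd209a at most at 0.4 FPKM. Itgax, which encodes CD11c, was at 240 to 260.7 FPKM in immature and 160.8 to 227.2 FPKM in mature libraries, a lower level in every mature library (log2 fold change -0.41, edgeR adjusted p = 0.0124). Mature replicate 3 stood apart, with a median chi-square per gene of 17.7 to 25.6 against the other mature libraries, where pairs among replicates 1, 2 and 4 gave 4.26 to 5.27. Results that rest on this library are given with and without it. Transcripts of cardiac muscle genes were found in mature replicates 2, 3 and 4, where Myh6 was at 37.5, 38.8 and 38.1 FPKM, and mature replicate 1 stood apart with 0.07 FPKM, against 0.09 to 0.14 FPKM in immature libraries. The summed level of the 7 listed genes was 12.17 FPKM in mature replicate 1, of which Tnni3 made up 11.18 FPKM, and at most 263.6 FPKM in the other mature libraries, against 1.81 to 1.97 FPKM in immature ones. In mature replicate 1, Il2ra, Il2rg, Il4ra and Il7r were above and Crlf2 below every immature library, as the values below show. The part of the cardiac muscle transcripts in the differences between the groups was not tested.

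Levels are given as FPKM, the deposited unit, which is scaled by gene length so that chains can be set side by side. Changes are log2 fold changes of mature over immature cells from edgeR, fitted to the counts of 17461 genes that passed its filter on low counts. A gene passed the criteria, taken from the paper, when it changed by 1 or more on the log2 scale in either direction and its adjusted p was below 0.05. In these bulk libraries, more cells expressing a receptor and more RNA per cell cannot be told apart.

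All 7 receptor chains, chosen with earlier results of these data known, were tested. Il2ra, Il7r and Il4ra rose past both criteria, so that 3 of 7 members were higher, against 13.2% of all genes tested. None of the 7 was lower by these criteria, against 9.95% of all genes. By adjusted p alone, 4 of 7 were higher (Il2rg in addition), against 23.2% of all genes, and 1 of 7 was lower (Crlf2), against 22.9%. In CPM, which are TMM-scaled counts not divided by gene length, the mature libraries lay wholly above the immature ones for 4 members, against 25.4% of all genes. They lay wholly below for Crlf2 and Il13ra1, against 26.7%. The downward counts of the members were thus near or below the shares of the whole table. The median log2 fold change was 0.55 over the members and 0.055 over all genes tested.

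**Figure D1:**
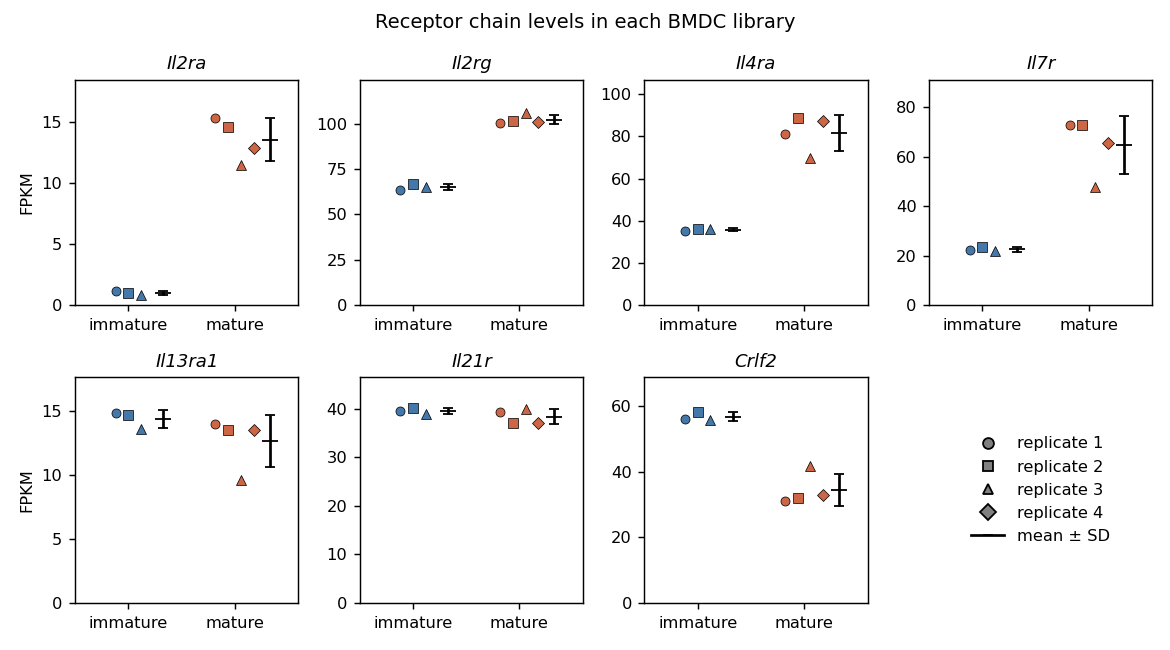
FPKM (vertical axes, from 0, a scale for each gene) of the 7 receptor chains in 3 immature (blue) and 4 mature (orange) BMDC libraries, with each library as a point and the mean ± SD beside it. Il2ra, Il2rg, Il4ra and Il7r lie higher in every mature library, Crlf2 lies lower in every mature library, and Il13ra1 and Il21r overlap.

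**Figure D2:**
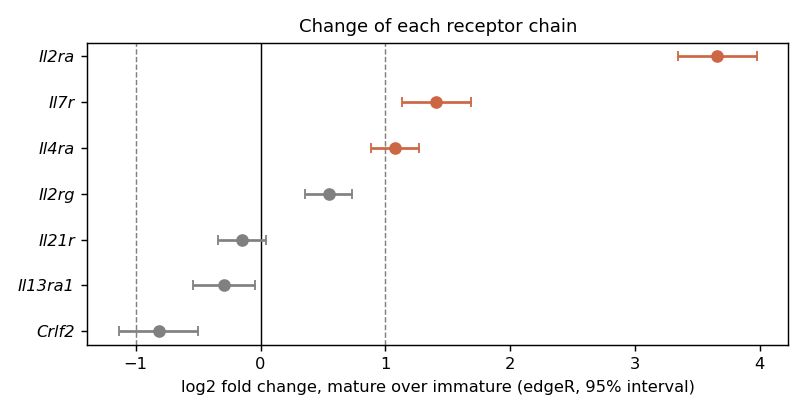
Log2 fold change of mature over immature cells for each chain (points) with its 95% interval (bars) from edgeR, with dashed lines at the fold criterion of 1 in either direction and chains past both criteria in orange. The intervals run from 3.35 to 3.98 for Il2ra down to -1.13 to -0.50 for Crlf2.

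Il2rg, the shared chain, was the most abundant of the 7 in both groups. It lies at chrX:101264378-101268255 on the minus strand. Its level was 63.7, 66.8 and 64.9 FPKM in immature replicates 1 to 3 and 100.4, 102, 106 and 101 FPKM in mature replicates 1 to 4. Every mature library was above every immature library, and the spread within a group was small beside the gap, with 65.1 ± 1.55 (SD, n = 3) against 102 ± 2.53 FPKM (SD, n = 4). The log2 fold change was 0.55 (SE 0.082, 95% interval 0.36 to 0.73, edgeR adjusted p = 0.000665), which passed the test but not the fold criterion. A protein-coding gene on the same strand, Gm20489, overlaps Il2rg and was not analysed here, so the share of reads between them is uncertain.

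Il2ra encodes the chain that raises the affinity of the receptor for IL-2 and lies at chr2:11642807-11693193 on the plus strand, downstream of the promoter window printed above. It was the least abundant chain in immature cells, at 1.13, 1.02 and 0.82 FPKM. In mature cells it was at 15.3, 14.5, 11.4 and 12.8 FPKM. All 4 mature libraries were thus above all immature ones, with mature replicate 3 the lowest of the mature group, and the mean went from 0.99 ± 0.157 to 13.5 ± 1.74 FPKM. The log2 fold change of 3.66 (SE 0.14, 95% interval 3.35 to 3.98, edgeR adjusted p = 4.1e-07) was a 12.6-fold rise with an interval of 10.2 to 15.7, and lay above that of 96.8% of genes tested. Without mature replicate 3 it was 3.73. An overlapping gene model on the same strand, Gm37881, had at most 57 counts in any library, against 3907 to 5975 counts of Il2ra in mature libraries.

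IL-2Rα is also a chain of activated and regulatory T cells, and IL-7Rα one of resting T cells. None of the 8 T cell markers tested passed the criteria, against 13.2% of all genes higher and 9.95% lower. The summed level of the 9 markers of the list was 0.83 to 1.19 FPKM in immature and 0.82 to 1.16 FPKM in mature libraries. Cd3e, a chain of the T cell receptor complex, did not exceed 0.08 FPKM, and Foxp3, the regulator of regulatory T cells, did not exceed 17 counts. The T cell markers were thus low in both groups. Innate lymphoid cells carry these chains too. Of their markers, Gata3 did not exceed 0.13 FPKM and Rora 1.01 FPKM in any library, and neither passed the test, while Il1rl1 was lower in mature cells (log2 fold change -1.94). Mast cell and basophil markers summed to 0.89 to 1.09 FPKM in immature and 4.16 to 5.79 FPKM in mature libraries. Most of the sum in mature libraries was Kit, which went from 0.55 ± 0.098 to 4.06 ± 0.745 FPKM. Of 4 such markers tested, 2 (Kit and Hdc) were higher past the criteria, against 13.2% of all genes. Hdc was at most at 0.65 FPKM, and the defining Cpa3 and Ms4a2 at most at 0.46 and 0.11 FPKM. The part of T cells, innate lymphoid cells, mast cells or basophils in the rise of Il2ra and Il7r was not tested.

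Il4ra, the chain that binds IL-4, lies at chr7:125552120-125579474 on the plus strand. Immature libraries had 35.2, 36.0 and 36.3 FPKM and mature libraries 81.2, 88.5, 69.8 and 87.0 FPKM. The immature libraries were close together, mature replicate 3 was the lowest of the mature group, and the groups did not overlap (35.8 ± 0.574 against 81.6 ± 8.49 FPKM). Its log2 fold change was 1.08 (SE 0.083, edgeR adjusted p = 1.2e-05), with a 95% interval of 0.89 to 1.27 that includes the fold criterion of 1. The value stayed between 1.05 and 1.18 under 14 alternative settings and past the criteria in each. An antisense transcript, Gm44876, had at most 9 counts.

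Il13ra1 encodes the partner of IL-4Rα in the type II receptor and lies at chrX:36112110-36171259 on the plus strand. Immature libraries had 14.9, 14.6 and 13.6 FPKM, and mature libraries 14.0, 13.5, 9.63 and 13.5 FPKM. Mature replicate 3 was low and apart from the other mature libraries, which lay within or just under the immature range. In CPM the mature libraries (40.5 to 53.9) were all below the immature ones (58.9 to 62.2), whereas in FPKM the ranges overlapped. The log2 fold change of -0.29 (SE 0.11, 95% interval -0.54 to -0.05) did not pass the test, with an edgeR adjusted p of 0.0535. Without mature replicate 3 it was -0.19 with an edgeR adjusted p of 0.0143, so the call of this small difference depended on that library.

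The chains of the IL-4 and IL-13 receptors therefore differed unequally between the groups, which was examined as 3 ratios within each library on the log2 FPKM scale. The log2 ratio of Il4ra to Il13ra1 was 1.24, 1.30 and 1.42 in immature libraries and 2.54, 2.71, 2.86 and 2.69 in mature libraries. Every mature library was higher, and the mean went from 1.32 ± 0.089 to 2.70 ± 0.131, which is Il4ra at 2.50 times the FPKM of Il13ra1 in immature and 6.49 times in mature cells. For Il4ra to Il2rg the log2 ratio went from -0.86 ± 0.027 to -0.33 ± 0.187, with mature replicate 3 the lowest mature library at -0.60 and no immature library above -0.84. Without mature replicate 3 this difference was 0.62 in place of 0.53. Il13ra1 to Il2rg went the other way, from -2.18 ± 0.079 to -3.03 ± 0.288, so that Il2rg was at 4.54 times the FPKM of Il13ra1 in immature and 8.16 times in mature cells. Mature replicate 3 was lowest here as well, at -3.46, and without it the difference was -0.70 in place of -0.85. For each of the 3 ratios the groups did not overlap, which gave a p of 0.0571 in a two-sided exact permutation test over 35 labelings, also after adjustment over the 3 ratios. That is the smallest p that 3 against 4 libraries can give. The ratios compare transcripts and not receptor complexes. They are not corrected for the relation of mature replicate 3 to transcript length given below, or for any reads shared between Il2rg and Gm20489.

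**Figure D3:**
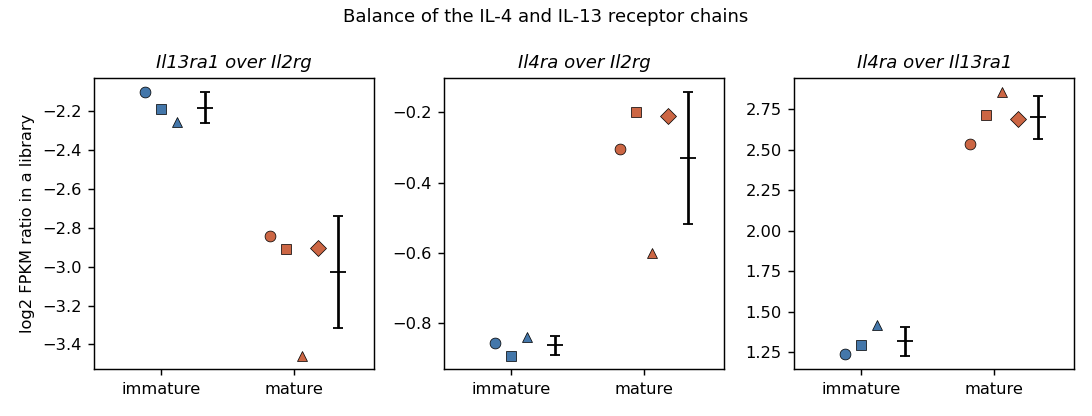
Log2 ratio of FPKM between chains of the IL-4 and IL-13 receptors in each library (points, shapes marking replicates 1 to 4 as circle, square, triangle and diamond), with mean ± SD, in immature (blue, n = 3) and mature (orange, n = 4) cells. The groups do not overlap for any ratio, and mature replicate 3 lies apart from the other mature libraries in the ratios to Il2rg.

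Il7r lies at chr15:9505788-9530176 on the minus strand. Its level was 22.3, 23.5 and 21.8 FPKM in immature and 73.0, 72.6, 48.0 and 65.5 FPKM in mature libraries. Mature replicate 3 was again the lowest of its group, yet remained above every immature library, with group means of 22.5 ± 0.871 and 64.7 ± 11.7 FPKM. The rise was 2.66-fold, a log2 fold change of 1.41 (SE 0.12, 95% interval 1.13 to 1.69, edgeR adjusted p = 2.4e-05), and 1.53 without mature replicate 3.

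Crlf2, whose product pairs with IL-7Rα to bind TSLP, went the other way. It lies at chr5:109554709-109558993 on the minus strand. Immature libraries had 56.1, 58.3 and 55.7 FPKM and mature libraries 31.2, 31.8, 41.8 and 32.9 FPKM. All mature libraries were below all immature ones, and mature replicate 3 was the highest of its group (56.7 ± 1.40 against 34.4 ± 4.97 FPKM). Crlf2 fell by 0.82 on the log2 scale (SE 0.14, 95% interval -1.13 to -0.50, edgeR adjusted p = 0.00137), short of the fold criterion, and by 0.94 without mature replicate 3. The order of both TSLP receptor chains was thus opposite in the groups. Every immature library had more Crlf2 than Il7r, and every mature library had more Il7r than Crlf2.

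Il21r, the IL-21-binding chain, lies at chr7:125603429-125633272 on the plus strand, the same strand as Il4ra and 23954 bases downstream of it. It was at 39.6, 40.2 and 38.8 FPKM in immature and 39.3, 37.1, 40.01 and 37.0 FPKM in mature libraries. The ranges overlapped, and the log2 fold change was -0.15 (SE 0.083, edgeR adjusted p = 0.183). The 95% interval of -0.34 to 0.04, or 0.79 to 1.03 as a fold, does not include a change as large as that of its neighbour Il4ra. Without mature replicate 3 the log2 fold change was -0.18 with an edgeR adjusted p of 0.00859, a small difference whose call depended on that library.

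In immature cells the order of levels in FPKM was Il2rg, Crlf2, Il21r, Il4ra, Il7r, Il13ra1 and Il2ra, and the ranges of neighbours in this order did not overlap. In mature cells it was Il2rg, Il4ra, Il7r, Il21r, Crlf2, Il2ra and Il13ra1. Here the ranges of Il4ra and Il7r overlapped, as did those of Il21r and Crlf2 and those of Il2ra and Il13ra1. The summed FPKM of the 7 chains was 235 ± 4.64 in immature and 347 ± 14.6 in mature cells. Il2rg held 27.7% of the sum in immature and 29.5% in mature cells, while Crlf2 went from 24.1% to 9.97%, Il4ra from 15.2% to 23.5% and Il7r from 9.58% to 18.6%.

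Mature replicate 3 departed from the other mature libraries in relation to transcript length. Over 17436 genes, its log2 CPM minus the mean over mature replicates 1, 2 and 4 had a Spearman rho of -0.405 with the length of the longest transcript. Among the members, this difference was 0.52 for Crlf2 (1405 bases), 0.20 for Il2rg (1670 bases) and 0.22 for Il21r (2499 bases). It was -0.42 for Il7r (3540 bases), -0.37 for Il13ra1 (3712 bases), -0.18 for Il2ra (4412 bases) and -0.16 for Il4ra (5256 bases). The shorter member transcripts were thus higher and the longer ones lower in this library. For genes of similar length to the member, the median of the same difference was 0.41 at the length of Crlf2 and -0.26 at that of Il4ra, and at the lengths of Il7r and Il13ra1 it was only -0.044 and -0.069. With a smooth function of transcript length as an offset in the fit, the log2 fold changes were 3.70 for Il2ra, 1.46 for Il7r, 1.12 for Il4ra, 0.53 for Il2rg and -0.86 for Crlf2, all on the same side of both criteria as before. Under this offset Il13ra1 (-0.25) passed the test, with an edgeR adjusted p of 0.038.

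**Figure D4:**
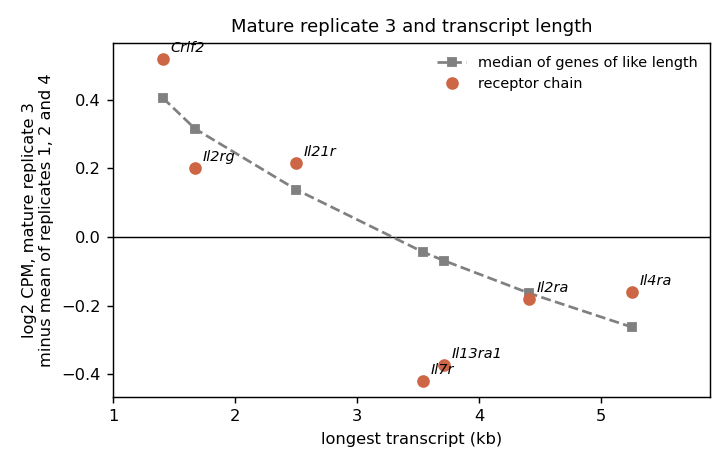
Log2 CPM of mature replicate 3 minus the mean of mature replicates 1, 2 and 4 (vertical axis) against longest transcript length in kb (horizontal axis) for the 7 receptor chains (orange) and, at the same lengths, the median of genes of like length (grey). The values run from 0.52 for Crlf2 to -0.42 for Il7r, and Il7r and Il13ra1 lie below the median of genes of their length.

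Across the 7 libraries, log2 CPM of Il2ra, Il4ra and Il7r moved together (Pearson r of 0.984 to 0.988 between them), and Crlf2 moved against Il7r (r = -0.98). These values are descriptive, since the 7 points share the division into immature and mature cells and the library depth. By the same measure over 11322 genes with a mean FPKM of at least 1, the genes nearest to Il2ra were Ing1 (0.9995), Arc (0.9995) and Sesn2 (0.9994), and 315 genes reached an r of 0.99. Those nearest to Il4ra were Arid5a, Syt7 and Cul7, with r of 0.9989 to 0.9994. Plekhg2, Filip1l and Usp3 were nearest to Il7r (0.9990 to 0.9992), and Fabp5, Lancl1 and Itm2c to Il2rg (0.9988 to 0.9994). Prdx5 and Capg (both 0.9978) were among those nearest to Crlf2, and Oxsr1, Smarca5 and Kif13b (0.9942 to 0.9985) were nearest to Il13ra1. Il21r had the fewest close neighbours, with Spsb2, Pdzd11 and Tmem179b at 0.9864 to 0.9948 and 1 gene at 0.99 or above.

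The genes around the receptors were then described from lists of partner chains, ligands, kinases, transcription factors, inhibitors and response genes. These lists were chosen with earlier results of these data known. Among 4 partner chains, 2 passed the filter on low counts, and 1 of them was higher, against 13.2% of all genes. Il15ra, the chain that presents IL-15, was at 1.61, 1.87 and 1.66 FPKM in immature and 8.06, 8.20, 6.88 and 7.04 FPKM in mature libraries, well apart, with a log2 fold change of 2.02 (SE 0.10, edgeR adjusted p = 1.1e-06). Il2rb, the chain shared by the IL-2 and IL-15 receptors, was low in both groups, at 0.443 ± 0.110 and 0.54 ± 0.041 FPKM (log2 fold change 0.16, edgeR adjusted p = 0.582). Mature libraries thus held more Il2ra and Il2rg, while the level of the signalling chain Il2rb was under 1 FPKM throughout. Il9r did not exceed 20 counts and Il13ra2, a decoy receptor for IL-13, 4 counts. The median log2 fold change of the partner chains tested was 1.09, against 0.055 over all genes.

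Of 8 ligands, 6 were in the table, 3 were tested and 1 was higher, against 13.2% of all genes, with a median log2 fold change of 0.89 over those tested. Il15 was at 3.64, 4.17 and 4.21 FPKM in immature and 12.1, 12.01, 13.5 and 11.8 FPKM in mature libraries, which did not overlap (log2 fold change 1.52, SE 0.12, edgeR adjusted p = 1.7e-05). Il15 and its receptor chain Il15ra were thus both higher in mature cells. Il7 reached at most 156 counts and differed by 0.89 (edgeR adjusted p = 0.0233), below the fold criterion, and Il4 reached at most 32 counts (edgeR adjusted p = 0.399). Il13, Il21 and Tslp had at most 19, 4 and 8 counts and were not tested. Il2 and Il9 were not analysed here.

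Of the 4 JAK kinases, 2 were higher (against 13.2% of all genes) and none was lower (against 9.95%), with a median log2 fold change of 1.14. Jak3, which binds the common gamma chain, was at 6.93, 6.60 and 6.24 FPKM in immature and 22.9, 24.6, 20.6 and 23.8 FPKM in mature libraries. The groups were well apart, and the log2 fold change of 1.69 (SE 0.075, edgeR adjusted p = 6.6e-07) was larger than that of Il2rg itself (0.55), a difference that was not tested. Jak2, a kinase of the TSLP receptor, went from 96.4 ± 5.76 to 297 ± 53.9 FPKM (log2 fold change 1.51, SE 0.13, edgeR adjusted p = 2.5e-05). Tyk2, which associates with IL-13Rα1, differed by 0.76 (edgeR adjusted p = 0.000298), short of the fold criterion. Jak1, the kinase of IL-4Rα and IL-7Rα, was at 31.2 ± 1.56 and 29.7 ± 5.72 FPKM, and its log2 fold change of -0.19 did not pass the test (edgeR adjusted p = 0.273).

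Of 8 STATs and adaptors, 1 was higher and 1 lower, near the shares of 13.2% and 9.95% over all genes, with a median log2 fold change of 0.09. Stat5a, activated by IL-2, IL-7 and TSLP, went from 13.2 ± 0.275 to 29.2 ± 4.73 FPKM (log2 fold change 1.03, SE 0.11, edgeR adjusted p = 8.7e-05). It lies next to the fold criterion, and the count of higher genes was 0 without mature replicate 4 or with the replicate number as a block. Irs2, an adaptor recruited by IL-4Rα, fell by 1.38 on the log2 scale (SE 0.13, edgeR adjusted p = 3.6e-05), from 8.09 ± 1.05 to 3.36 ± 0.540 FPKM. Stat6, the main transcription factor of IL-4 signalling, was at 57.9, 54.0 and 54.2 FPKM in immature and 59.6, 63.1, 49.6 and 62.2 FPKM in mature libraries. Its ranges overlapped, with a log2 fold change of -0.027 (SE 0.081, edgeR adjusted p = 0.81). By adjusted p alone, 3 of the 8 were higher, against 23.2% of all genes, and 1 was lower, against 22.9%.

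Among 8 inhibitors, 1 was higher and none lower, against 13.2% and 9.95% of all genes, with a median log2 fold change of 0.27. Socs2 went from 12.6, 13.0 and 13.2 FPKM in immature to 37.9, 42.6, 34.8 and 42.1 FPKM in mature libraries, without overlap (log2 fold change 1.49, SE 0.083, edgeR adjusted p = 1.9e-06). Cish and Socs1, like Socs2 feedback inhibitors of cytokine receptors, and the phosphatase gene Ptpn2 were higher by adjusted p alone, with log2 fold changes of 0.91, 0.81 and 0.44, so that 4 of 8 passed that test upward, against 23.2% of all genes. Ptpn6, the gene of the phosphatase SHP-1, was lower by adjusted p alone, at -0.69 (1 of 8, against 22.9%).

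**Figure D5:**
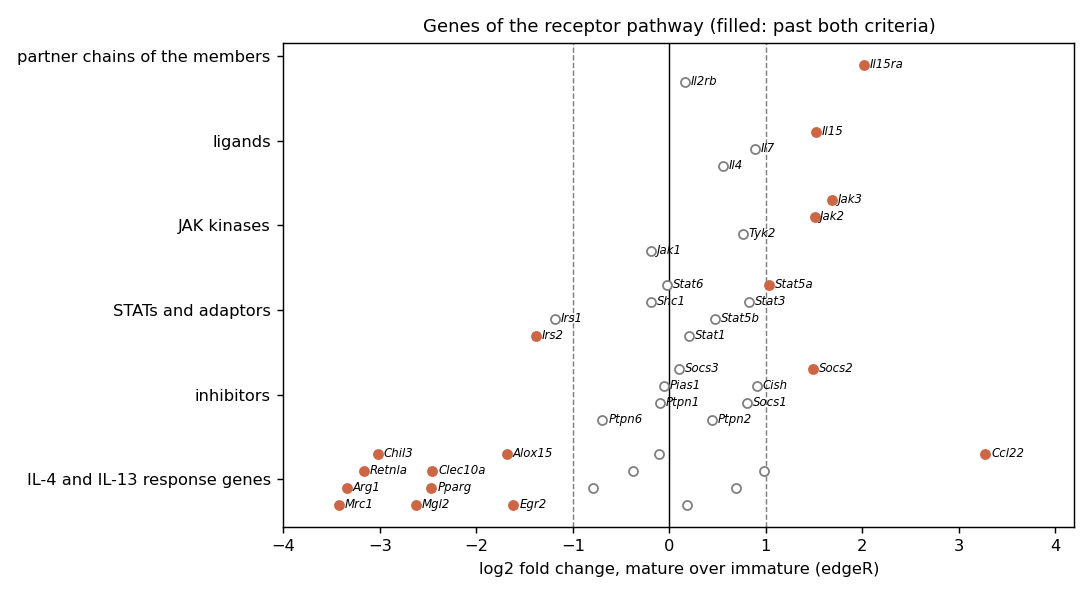
Log2 fold change of mature over immature cells (horizontal axis, edgeR) for the genes tested in each list (vertical axis), filled where past both criteria, with dashed lines at the fold criterion of 1. Filled points lie on the right for Il15ra, Il15, Jak3, Jak2, Stat5a, Socs2 and Ccl22, and on the left for Irs2 and 9 response genes.

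Genes known to respond to IL-4 and IL-13, listed with earlier results of these data known, differed mostly in the downward direction. Of 17 listed, 16 were tested, 9 were lower (against 9.95% of all genes) and 1 was higher (against 13.2%), and their median log2 fold change was -1.65 against 0.055 over all genes. Arg1, the gene of arginase 1, was at 957, 1031 and 949.6 FPKM in immature and 96.4, 90.6, 106 and 121 FPKM in mature libraries, a log2 fold change of -3.34 (SE 0.13, edgeR adjusted p = 4.1e-07). The groups were far apart. Retnla (-3.16), Chil3 (-3.02), the lectin genes Mgl2 (-2.62) and Clec10a (-2.46), the mannose receptor gene Mrc1 (-3.43) and Egr2 (-1.62), a transcription factor gene, were lower as well, with edgeR adjusted p of at most 4.3e-06. Chil3 belongs to a family of near-identical genes that can share reads. Pparg and Alox15 made up the rest. Ccl22, a chemokine gene also expressed by mature dendritic cells, rose from 346.5 ± 9.85 to 3604 ± 228 FPKM (log2 fold change 3.28, SE 0.12, edgeR adjusted p = 3.0e-07). Ccl17, which lies with Ccl22 in a chemokine cluster, was at 984 ± 94.1 and 1197 ± 345 FPKM and did not pass the test (log2 fold change 0.19, edgeR adjusted p = 0.539). By adjusted p alone 3 were higher (against 23.2% of all genes), which adds Irf4 (0.99), a transcription factor gene, and Pdcd1lg2 (0.69), the gene of PD-L2, and 10 were lower (against 22.9%), which adds Tgm2 (-0.79). Ccl24 and Cdh1 did not pass the test, and Fcer2a, with at most 4 counts, was not tested.

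Several of these response genes are also expressed by macrophages. All 8 macrophage and monocyte markers were lower in mature libraries past both criteria, against 9.95% of all genes tested. Their median log2 fold change was -2.61, and none of them was at 0. Their summed level was 753 to 786.5 FPKM in immature and 146.3 to 185 FPKM in mature libraries. Among them, Csf1r, the receptor for M-CSF, lay between 18.8 and 20.3 FPKM in mature against 107 to 115 FPKM in immature libraries. Their part in the fall of the response genes, of Irs2 and of Crlf2 was not tested.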

How the data were processed

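RNA of flow-sorted immature (n = 3) and mature (n = 4) BMDCs was analysed, with groups and replicate numbers from the sample labels. Libraries were poly(A)-selected and dUTP-stranded per the labels. The authors deposited raw counts per gene, without normalization, and FPKM, which are scaled by gene length and library total. The submitters' processing notes name cutadapt 1.9, HISAT2 2.2.1, StringTie 2.1.6, DESeq2 and edgeR, and the strand setting of the counting is not given in the sources used here. The notes name build mm9, whereas 90.4% of 28588 genes had the same start and end as GENCODE M21 on GRCm38, the build used here.

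The members and gene lists were chosen with earlier results of these data known. Counts of all libraries were fitted with edgeR 4.0.16 in R 4.3.3 (filterByExpr, TMM, quasi-likelihood test, no covariates), with Benjamini-Hochberg adjustment over 17461 genes. Standard errors were derived from the log2 fold change and its F statistic. CPM uses TMM-scaled totals, with a prior count of 2 on the log2 scale. All members were named, as were genes past the criteria in each list (at most 8, by mean FPKM), those near a limit or at low counts, and the 3 genes most correlated with each member. List genes named without passing the criteria, and the Spearman relation to length, were chosen after values were seen. Alternatives were DESeq2 1.42.0, limma 3.58.1 on log2(FPKM + 1) and log2(FPKM + 0.1) (FPKM of 1 or more in 3 libraries), no filter, a minimum FPKM of 5 in 3 libraries, no fold criterion, each library left out and a replicate block. A loess offset on transcript length (span 0.5) was added after seeing the data. Ratios and figures used Python 3.11.15, pandas 2.3.3, numpy 2.4.6, scipy 1.17.1 and matplotlib 3.10.9. The tests were checked on simulated counts. Every pair of libraries of 1 group differed beyond sampling noise by a chi-square of their counts. Promoter windows are from RefSeq, with 7 of 7 members matched. A marker and a correlated gene are not reported here.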

Additional observations from a re-analysis of the deposited data

Results flagged for a closer look

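Among 35 values compared across the 4 mature libraries, 8 had a library whose gap to its nearest neighbour, as a share of the whole range, was above Dixon's critical value for 4 libraries. Chance gives such a gap in about 1 in 20 groups, or about 1.8 of these values, which are not independent since CPM, FPKM and ratios share genes. In 7 of the 8, mature replicate 3 was the library apart. The gap was 0.861 of the range for CPM of Il2rg, where mature replicate 3 was highest. For Crlf2 it was also highest, at 0.853 in CPM and 0.836 in FPKM. It was lowest in FPKM of Il13ra1 (0.879) and in the log2 FPKM ratio of Il13ra1 to Il2rg (0.889). Outside the members, the gap was 0.878 for CPM of Il15 and 0.873 for CPM of Jak2. Mature replicate 4 was apart in CPM of Alox15 (0.838).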

How the results depend on the processing

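Under 14 alternatives, Il2ra, Il4ra and Il7r passed both criteria in each and Il2rg, Il13ra1, Il21r and Crlf2 in none, and no member changed direction. Leaving out 1 library gave log2 fold changes of 3.55 to 3.76 for Il2ra, 1.05 to 1.14 for Il4ra, 1.36 to 1.53 for Il7r, 0.52 to 0.57 for Il2rg, -0.94 to -0.75 for Crlf2, -0.34 to -0.19 for Il13ra1 and -0.18 to -0.11 for Il21r. Il13ra1 passed adjusted p alone with the length offset (-0.25, edgeR adjusted p = 0.038) and without mature replicate 3 (-0.19, 0.0143), over a range of adjusted p of 0.0143 to 0.254, as did Il21r without mature replicate 3 (-0.18, 0.00859), over 0.00859 to 0.585. Over all genes, 4037 passed the criteria, 1525 with an FPKM of at least 5 (7162 genes tested), 2561 and 1768 by limma on log2(FPKM + 0.1) and log2(FPKM + 1), 8053 without the fold criterion and 3646 to 4052 with 1 library left out. The 1 higher response gene became 2 with DESeq2, the FPKM filter, both limma fits, no filter and the length offset, 1 to 2 with 1 library left out (2 without immature replicate 1 or mature replicate 3), and 3 without the fold criterion. Without that criterion there were also 2 higher ligands, 3 STATs and adaptors and 4 inhibitors, and 1 lower member and 1 lower inhibitor. Higher ligands were 1 to 2 with 1 library left out (2 without immature replicate 2), higher inhibitors 2 by limma on log2(FPKM + 0.1), and higher STATs and adaptors 0 to 1 with 1 library left out. Same-numbered libraries did not deviate together (correlations of -0.001 to 0.029), and under a replicate block 3616 genes passed, the higher STATs and adaptors became 0, and no call of a member changed (Il4ra 1.05, Il13ra1 -0.33). The median log2 fold change of all genes was 0.180 by DESeq2 and 0.171 without a filter, against 0.055. The cause of these changes was not tested. At totals of 54846746 counts or more per library, Il9r, Il13ra2, Il13, Il21 and Tslp did not pass the filter on low counts, and no difference could be read for them.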
